A study of Mus musculus with 4 samples.

Results

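B-2-like cells were the B cells with transcripts of the CD23 or CD21 receptor and none of 2 genes linked to B-1 cells, among peritoneal cells sorted for F4/80, a macrophage surface protein. A barcode was a member when it had at least 500 detected genes, at most 10% mitochondrial UMIs (molecules counted once by their identifier), at least 3 UMIs of Cd79a, at least 1 UMI of Fcer2a or Cr2, and no UMI of Adgre1, Csf1r, Cd3d, Cd3e, Cd3g, Bhlhe41 or Zbtb32. The rule found 214 members among 26811 barcodes. They were set beside 825 comparator B cells, which met the same limits on Cd79a, Adgre1, Csf1r and Cd3 genes but had at least 1 UMI of Bhlhe41 or Zbtb32. A further 392 B cells had none of the 4 marker genes Fcer2a, Cr2, Bhlhe41 and Zbtb32 and are called marker-negative below.

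The series holds 4 groups of mice aged 24 weeks, with 1 sample each. They were C57BL/6 wild-type mice on a normal diet, Apoe-/- mice on a normal diet, Apoe-/- mice given, from 4 weeks of age and for 20 weeks, a high-fat diet with 0.15% cholesterol and 21% fat, and Apoe-/- mice on that diet that received 3 mg of anti-CVI-mAb, an antibody against collagen VI, at week 21. The other groups received PBS by the same route, and both groups on the high-fat diet were returned to normal food a week before the first injection. The 3 Apoe-/- groups lack apolipoprotein E, which clears cholesterol-rich particles from blood; male sex is stated only for the Apoe-/- mice fed the high-fat diet. The labels call the cells macrophages, and all were viable F4/80-positive cells taken up in a 10x Genomics 3' kit. Barcodes carry the suffixes 1 to 4, treated as 4 libraries. The group behind each suffix is not given in the labels or headers, so nothing below compares genotypes, diets or the antibody, and no library has a replicate with which a difference could be tested.

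B-2 cells are the conventional B cells that arise from bone marrow, recirculate between blood, spleen and lymph nodes, and take part in responses that need T cells. Resting B-2 cells carry IgM together with much IgD and display CD23, the low-affinity IgE receptor encoded by Fcer2a, and the complement receptors CD21 and CD35, both encoded in the mouse by Cr2. B-1 cells are the other main B lineage of body cavities; they renew themselves, secrete natural IgM, carry little IgD, and in the B-1a subset depend on the transcription factor Bhlhe41.

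Library 1 stood apart in its sex-linked transcripts, also in these cells. Xist, which is transcribed from the inactive X chromosome of females, had 401 UMIs in 52 of the 57 B-2-like cells of library 1 and 0, 1 and 0 UMIs in the members of libraries 2, 3 and 4. Ddx3y, a gene of the Y chromosome, had 0, 21, 15 and 13 UMIs in the members of libraries 1 to 4. Counts of called genes are therefore also given without library 1. No barcode sequence of a member recurred in another library, whereas 52 sequences did so over all barcodes.

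The limits removed cells in steps. Of 3611, 6023, 5311 and 5919 barcodes that passed the gene and mitochondrial limits in libraries 1 to 4, 1057, 771, 441 and 394 had at least 3 UMIs of Cd79a, the signalling chain of the B cell receptor. Requiring 0 UMIs of Adgre1, the gene of the sorted F4/80 protein, left 586, 576, 311 and 281. The limits on Csf1r, the receptor for macrophage colony-stimulating factor, and on the T cell receptor genes of CD3 then left 427, 484, 276 and 244 B cells. Having no Adgre1 UMI is thus set by the rule; counted as 3 UMIs, a 0 in members allows up to 9.93, 12.9, 14.6 and 12.4 CPM, and whether they bore F4/80 on their surface was not tested.

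B-2-like cells were a minority of these B cells in each library. They numbered 57, 45, 57 and 55, which was 13.3% (10.3 to 16.9), 9.30% (6.86 to 12.2), 20.7% (16.0 to 25.9) and 22.5% (17.5 to 28.3) of B cells in libraries 1 to 4. Parentheses give exact 95% intervals (Clopper-Pearson for a share, Poisson for a sum of UMIs), which hold the error of counting alone. The interval of library 2 lay below those of libraries 3 and 4, and that of library 1 overlapped library 3. Of all barcodes that passed the quality limits, members made up 1.58, 0.747, 1.07 and 0.929%. Comparator cells took 72.8, 60.5, 34.8 and 51.2% of B cells.

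Depth moved with these shares. Members had medians of 4919, 4431, 3309 and 3668 UMIs in libraries 1 to 4, comparator cells 10952, 8308, 7454 and 7750, and marker-negative cells 5523, 5646.5, 4442 and 4964.5. A shallow cell more easily shows 0 UMIs of Bhlhe41 and Zbtb32, and a deep one more easily shows 1 of Fcer2a or Cr2. After each barcode was thinned at random to 2000 UMIs before the rule was applied, members were 7.51, 6.79, 16.4 and 13.8% of B cells and comparator cells 34.0, 28.0, 17.4 and 23.6%. The limits on Adgre1, Csf1r and Cd3 genes were also read after thinning, so some barcodes outside the full rule counted as B cells. B cells then numbered 732, 560, 287 and 297 in libraries 1 to 4, instead of 427, 484, 276 and 244. Thinning left out 171, 89, 39 and 33 shallower barcodes. The part of depth in the differences between libraries was not tested beyond that thinning. Libraries 3 and 4 again had the higher shares there, but of B cell numbers that had grown unevenly, most in library 1.

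**Figure D1:**
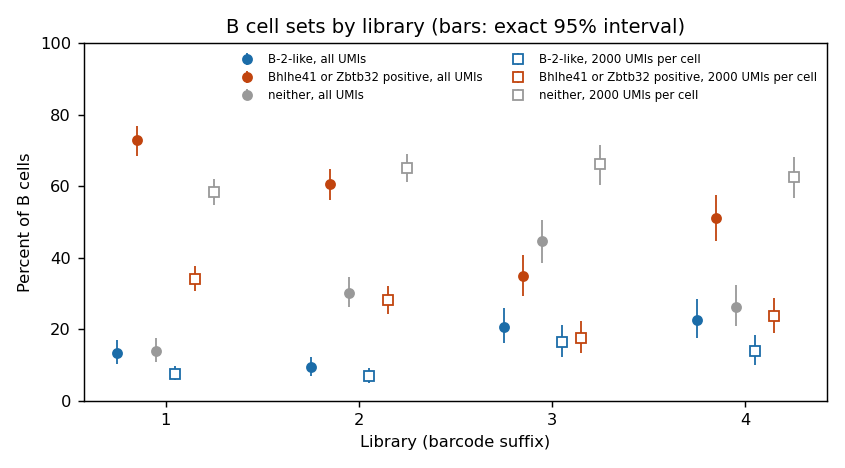
Share of B cells (vertical axis, percent) that were B-2-like, Bhlhe41 or Zbtb32 positive, or neither, in libraries 1 to 4 (horizontal axis), with all UMIs (filled circles) and after thinning to 2000 UMIs per cell (open squares); bars are exact 95% intervals. B-2-like cells ran from 9.30 to 22.5% with all UMIs and from 6.79 to 16.4% after thinning. Thinned shares are of the B cells found after thinning, which were more numerous.

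The genes that chose the members had these levels, which are a description and not a finding. Levels are summed UMIs of a set of cells per 1000000 of its UMIs (CPM), with the 10 genes of the rule left out of the total. Fcer2a was at 275, 253, 365 and 277 CPM in the members of libraries 1 to 4, and at 12.5, 7.29, 18.7 and 20.0 CPM in comparator cells. In macrophage-type cells, which had UMIs of Adgre1 and Csf1r and none of Cd79a, it was at 0.27, 0.05, 0.11 and 0.06 CPM. Cr2 was at 136, 124, 131 and 107 CPM in members. Cd79a was near equal in members (2648, 2832, 2819 and 2989 CPM) and comparator cells (3049, 3069, 2758 and 3082 CPM). On the mouse genome GRCm38, Fcer2a lies on chromosome 8 from 3681737 to 3694175 (minus strand), Cr2 on chromosome 1 from 195136811 to 195176716 (minus strand) and Cd79a on chromosome 7 from 24897381 to 24902197 (plus strand), all protein-coding genes.

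Membership rested on few molecules. Members had a median of 12 Cd79a UMIs (3 to 36) and a median of 1 UMI of Fcer2a and Cr2 together, with at most 7. Just inside the receptor limit were 118 members with exactly 1 such UMI, and just outside it the 392 marker-negative cells. Ighd stood at 1008, 611, 590 and 828 CPM in the former in libraries 1 to 4 and at 621, 262, 333 and 480 CPM in the latter, lower in each library. In the 96 members with 2 or more such UMIs it was at 1471, 709, 852 and 776 CPM, above members with 1 in libraries 1 to 3 and below them in library 4. On the Cd79a limit lay 2 members with 3 UMIs, and 1 cell with 2 UMIs met all other limits. Another 44 cells missed membership by 1 UMI of Bhlhe41 or Zbtb32, with Ighd at 426, 147, 693 and 409 CPM, and 66 by 2 or more, of which library 3 held 1. Finally, 87 cells met all limits but those on Adgre1 and Csf1r, and they held Lyz2, the lysozyme gene of macrophages, at 14463 CPM summed over libraries.

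Ighd, the fourth marker of the label and not part of the rule, was high in members. Its level was 1228, 652, 716 and 806 CPM in the B-2-like cells of libraries 1 to 4, against 167, 138, 226 and 139 CPM in comparator cells and 621, 262, 333 and 480 CPM in marker-negative cells. Every library had the same order, with members highest and comparator cells lowest. The gene encodes the constant region of the IgD heavy chain and lies on chromosome 12 from 113406604 to 113416324 (minus strand), next to Ighm, from 113418558 to 113422730, whose transcripts share its variable region by alternative splicing. After thinning to 2000 UMIs, 86.0, 62.2, 66.1 and 78.2% of members had an Ighd UMI (94.7, 88.9, 82.5 and 89.1% unthinned), against 20.9, 24.0, 32.3 and 23.2% of comparator cells (64.0, 55.3, 53.1 and 50.4% unthinned). In macrophage-type cells, at medians of 8019.5, 12233.5, 13949 and 12904 UMIs before thinning, the thinned share was 0.713, 0.0659, 0.0922 and 0.0198%.

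IgM moved the other way, though by less. Ighm was at 6416, 4050, 3253 and 3505 CPM in members and 9343, 6180, 5076 and 5327 CPM in comparator cells. An Ighm UMI was also seen in 48.3, 11.8, 6.40 and 4.69% of macrophage-type cells of libraries 1 to 4 (14.7, 2.26, 1.06 and 0.952% thinned). The part of such stray Ighm in the levels of B cells was not tested. As a share of Ighd and Ighm UMIs together, Ighd made up 16.1% (14.6 to 17.6), 13.9% (11.9 to 16.1), 18.0% (15.5 to 20.9) and 18.7% (16.4 to 21.2) in B-2-like cells. The same share was 1.76, 2.19, 4.27 and 2.55% in comparator cells and 6.88, 4.45, 6.79 and 9.22% in marker-negative cells. The counting intervals of members did not overlap those of the other sets in any library. UMIs of 1 cell are not independent of each other, so these intervals are too narrow for a spread between cells or mice.

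**Figure D2:**
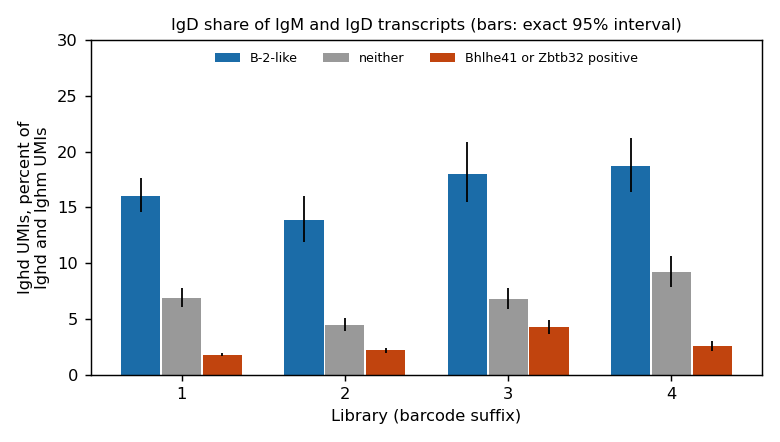
Ighd UMIs as a percent of Ighd and Ighm UMIs (vertical axis) in B-2-like, marker-negative ("neither") and Bhlhe41 or Zbtb32 positive B cells of libraries 1 to 4 (horizontal axis); bars start at 0 and lines are exact 95% intervals. B-2-like cells lay between 13.9 and 18.7% and comparator cells between 1.76 and 4.27%.

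Other immunoglobulin genes showed no single direction. Of 13 constant region genes on the list, 6 reached the level limit and Ighd alone was called. Ighm and 1 lambda gene were lower in all 4 libraries, beside 17% of all genes tested. That gene, Iglc2, was at 1271, 1446, 1363 and 1703 CPM in members and 1606, 2927, 2308 and 2559 CPM in comparator cells. Igkc, the kappa constant region, was at 7773, 8727, 10493 and 10574 CPM in members and 8276, 8241, 8791 and 8884 CPM in comparator cells. The lambda genes Iglc2 and Iglc3 are near-identical copies between which the counting could split reads. Summed over Iglc genes, lambda made up 25.8, 35.0, 24.4 and 25.9% of light chain UMIs in members. In comparator cells it made up 30.1, 43.7, 32.6 and 36.2%. Library 2 had the highest lambda share in both sets. Switched heavy chains were rare: 2, 2, 0 and 1 members had at least 3 UMIs of Ighg, Igha or Ighe genes that outnumbered Ighm, and Jchain, the joining chain of secreted IgM and IgA, had 0, 1, 0 and 0 UMIs.

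Across all genes, B-2-like and comparator cells differed strongly in few. A gene was tested when its mean over libraries reached 100 CPM in the higher set, and called when the log2 ratio of CPM (with 0.5 added to each UMI count) was 1 or more, or -1 or less, in each of the 4 libraries. Of 1282 genes tested, 12 (0.936%) were called higher in members and 10 (0.78%) lower. For each of these the counting interval of the ratio lay on the same side of 0 in 4 of 4 libraries. That interval comes from the Clopper-Pearson interval for the part of a gene's UMIs that lay in members, and treats UMIs as independent. The genes were picked by the size and sign of these same ratios, so the intervals are no further support. Scaling by TMM factors instead of totals gave 9 higher and 16 lower, of which 9 and 10 were among the calls above. It moved the median log2 ratio of all genes from 0.054 to -0.11. Without library 1 there were 11 higher and 13 lower, of which 10 and 7 were shared. P2ry10 and Zfp318 were no longer called higher, nor Diras2, Prkar2b and Sox5 lower. The ratios of these genes in the remaining libraries still met the size limit, but their mean levels fell under 100 CPM. Since the cells were chosen by genes of these same profiles, the ratios describe the sets and carry no p-value. With no limit on size, 307 genes (23.9%) kept a higher level in members in all 4 libraries and 218 (17%) a lower one. Counts from the gene lists below are to be read beside these shares.

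**Figure D3:**
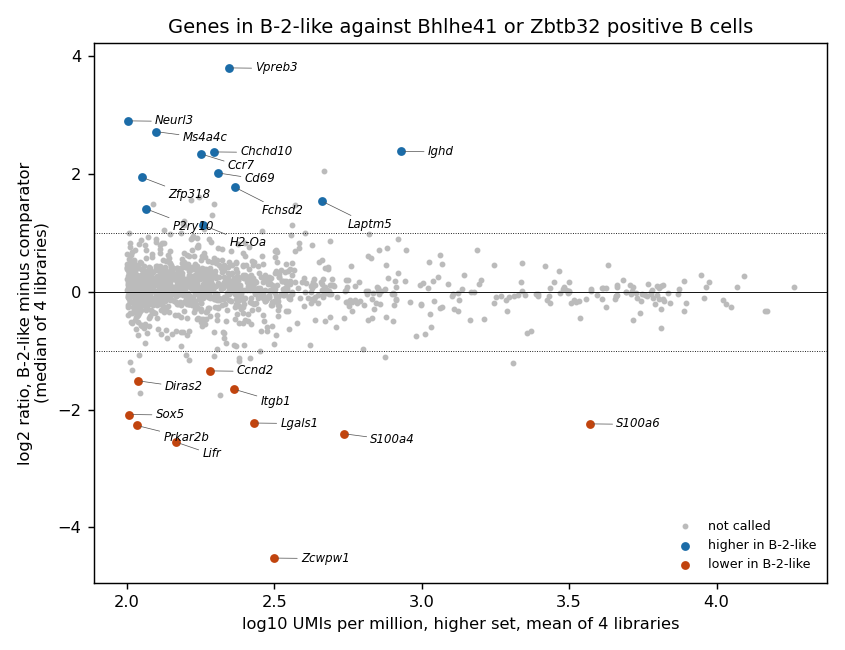
Median log2 ratio over the 4 libraries, B-2-like minus comparator cells (vertical axis), against the level in the higher set (horizontal axis, log10 of mean CPM) for the 1282 genes tested; dotted lines mark a log2 ratio of 1 in each direction. The 12 genes called higher (blue) and 10 called lower (orange) are named, from Vpreb3 at 3.80 to Zcwpw1 at -4.52.

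Vpreb3 had the highest ratio of all genes called. The gene, which encodes a protein that binds immunoglobulin chains inside developing B cells, was at 166, 163, 287 and 269 CPM in members and 9.91, 4.74, 24.1 and 30.5 CPM in comparator cells. The sets did not overlap, and the log2 ratios were 4.06 (3.42 to 4.71), 5.07 (4.16 to 6.14), 3.55 (2.79 to 4.42) and 3.13 (2.51 to 3.80). Vpreb3 lies on chromosome 10 from 75943057 to 75949657 (plus strand). Thinned to 2000 UMIs, 31.6, 22.2, 35.7 and 45.5% of members had a Vpreb3 UMI (40.4, 28.9, 43.9 and 52.7% unthinned), against 1.93, 1.03, 5.21 and 5.60% of comparator cells (8.68, 3.41, 10.4 and 13.6% unthinned) and at most 0.0581% of macrophage-type cells (unthinned). Most members of libraries 1, 2 and 3 thus showed none of it.

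Zfp318, a nuclear factor needed for full-length transcripts that reach Ighd, was called higher as well. It was at 156, 81.5, 117 and 95.1 CPM in members and 32.1, 17.5, 54.9 and 30.5 CPM in comparator cells, with log2 ratios of 2.29, 2.24, 1.10 and 1.65. Without library 1 its level fell under the limit for testing. Of 7 genes on the list of transitional B cells, the stage that has just left the bone marrow, only Vpreb3 and Cd24a reached the level limit. Cd24a was not called, at log2 ratios of 0.26, 0.71, 0.10 and 0.07. Cd93, which defines transitional cells at the surface, had 4, 1, 3 and 4 UMIs in members, and Dntt and Myb, genes of earlier precursors, had 0 in each library.

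Ccr7 and P2ry10, from the list of homing and adhesion genes, were called higher. Ccr7, the receptor that leads lymphocytes into lymph nodes, was at 232, 90.1, 185 and 207 CPM in members and 37.8, 32.4, 38.8 and 38.1 CPM in comparator cells. Members of library 2 were lowest and still above all comparator values, and the log2 ratios were 2.62 (2.18 to 3.04), 1.50 (0.71 to 2.17), 2.25 (1.52 to 3.00) and 2.43 (1.81 to 3.08). Macrophage-type cells had at most 0.548 CPM of Ccr7. The gene lies on chromosome 11 from 99144196 to 99155077 (minus strand).

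Cd69 encodes a surface protein that holds lymphocytes in tissue and appears early on activation. Its level was 166, 206, 243 and 198 CPM in members and 27.6, 38.3, 80.3 and 92.5 CPM in comparator cells, with ratios from 2.59 in library 1 down to 1.11 in library 4. P2ry10, a receptor for lysophospholipids, was at 169, 98.7, 97.4 and 99.2 CPM against 63.1, 36.1, 37.5 and 44.8 CPM. Its call was lost without library 1, where its mean level fell under the limit for testing. The call was also lost after thinning to 2000 UMIs and in cells of 3000 to 8000 UMIs, a range chosen after seeing the data. That of Cd69 was lost after the same thinning, in the same range of depth, and under TMM scaling.

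Not every homing gene had a high ratio. Of 20 genes on the homing and adhesion list, 11 were tested, Ccr7 and P2ry10 were called higher and Itgb1 lower, and 3 were higher and 2 lower in all 4 libraries with no limit on size. For all genes tested, the shares higher and lower in all 4 libraries were 23.9 and 17%. The median of the list was 0.21 with all libraries, -0.20 under TMM scaling and -0.24 without library 1, so it has no settled sign. Cxcr5, the receptor that guides B cells into follicles, was at 262, 116, 136 and 136 CPM in members and 202, 150, 167 and 165 CPM in comparator cells. S1pr1, the receptor for exit into lymph and blood, was at 295, 154, 156 and 169 CPM against 255, 216, 181 and 158 CPM. Itgb7, an integrin chain of gut homing, had log2 ratios of -0.49, -0.31, -1.56 and -0.44.

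**Figure D4:**
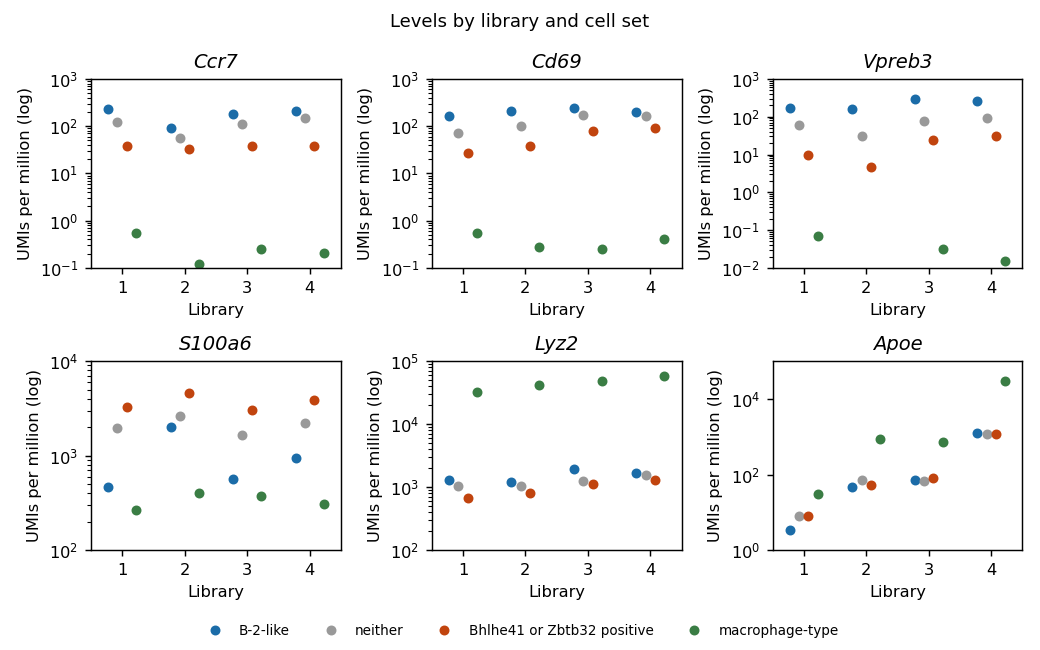
Levels of Ccr7, Cd69, Vpreb3, S100a6, Lyz2 and Apoe (vertical axes, CPM, logarithmic, each panel with its own range) in 4 cell sets of libraries 1 to 4 (horizontal axes); each point is the sum over 1 set in 1 library, and the 0 of Vpreb3 in macrophage-type cells of library 2 is not drawn. Ccr7, Cd69 and Vpreb3 were highest and S100a6 lowest among B cells in B-2-like cells of every library, whereas Apoe followed the library more than the B cell set.

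Members of the follicular B-2 list leaned higher. Of 14 genes, 12 were tested, and Ighd and Ccr7 were called higher and none lower, beside 0.936 and 0.78% of all genes tested. In all 4 libraries 8 were higher, beside 23.9% of all genes tested. The median log2 ratio was 0.57, beside 0.054 for all genes tested, and 0.43 beside -0.11 under TMM scaling. Bach2, a repressor that holds B cells back from becoming plasma cells, was at 301, 103, 117 and 103 CPM in members and 75.9, 54.3, 71.0 and 42.0 CPM in comparator cells. Ltb, which encodes lymphotoxin beta, was at 470, 802, 691 and 889 CPM against 333, 394, 439 and 522 CPM. Klf2, a factor for quiescence and recirculation, did not follow them, at 970, 1030, 1018 and 976 CPM in members and 962, 1253, 1319 and 1139 CPM in comparator cells. The list was chosen with earlier results of these data known and shares cells with the rule, so its direction is no independent support for the label.

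The remaining genes called higher came from several cell functions. Laptm5, which sends B cell receptors to lysosomes, was at 718, 330, 424 and 355 CPM in members and 215, 108, 159 and 129 CPM in comparator cells. Macrophage-type cells held far more Laptm5, at 2752, 1943, 1889 and 1796 CPM, and its call was lost in cells of 3000 to 8000 UMIs. Fchsd2, a regulator of membrane curvature and actin, was at 291, 202, 170 and 265 CPM against 73.0, 59.4, 58.9 and 77.2 CPM. Chchd10, a mitochondrial protein gene, was at 146, 112, 302 and 227 CPM against 28.2, 28.1, 50.9 and 43.9 CPM. In each of these 3 genes, the lowest member value exceeded the highest comparator value.

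Neurl3, a ubiquitin ligase gene, was at 96.0, 81.5, 131 and 95.1 CPM in members and 13.0, 12.8, 10.7 and 12.4 CPM in comparator cells. Macrophage-type cells also held it, at 88.9, 74.1, 55.5 and 82.4 CPM. Ms4a4c, of a family of membrane proteins with similar copies, was at 86.1, 129, 146 and 141 CPM against 13.3, 13.1, 36.2 and 21.0 CPM. Both rest on 19 to 34 UMIs per library in members. The call of Neurl3 was lost under TMM scaling and, through the level limit, without library 3.

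Genes of antigen presentation were more often above than below. Of 13 on the MHC class II and co-stimulation list, 9 were tested, 1 was called higher, none was called lower, and 5 were higher in all 4 libraries, with a median of 0.35 (0.23 under TMM scaling). Over all genes tested, 23.9% were higher in all 4 libraries and the median was 0.054 (-0.11 under TMM scaling). The called gene, H2-Oa, encodes a chain of H2-O, the brake on peptide loading; it was at 175, 159, 170 and 219 CPM in members and 81.1, 66.3, 77.7 and 109 CPM in comparator cells. The call of H2-Oa was lost after thinning, in cells of 3000 to 8000 UMIs and under TMM scaling. H2-Ob, its partner chain, was at 543, 438, 326 and 389 CPM against 287, 240, 253 and 237 CPM. The peptide-binding chain gene H2-Aa had smaller log2 ratios of 0.08, 0.48, 0.41 and 0.59, and Cd74, the invariant chain, -0.04, 0.29, 0.28 and 0.25.

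**Figure D5:**
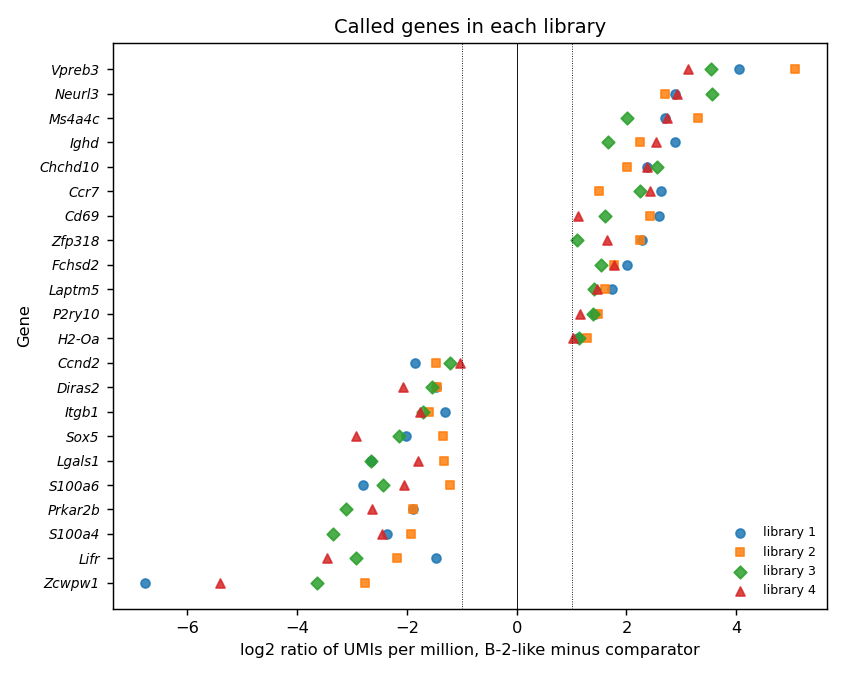
Log2 ratio of CPM, B-2-like minus comparator cells (horizontal axis), for the 22 called genes (vertical axis) in each of the 4 libraries (symbols); dotted lines mark ratios of 1 in each direction. Ratios of H2-Oa sat close to the limit in all libraries (1.02 to 1.27), whereas those of Zcwpw1 spread from -2.76 to -6.77.

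The genes called lower included both tested members of the B-1 list. S100a6, a calcium-binding protein gene, was at 470, 1991, 565 and 938 CPM in members and 3275, 4613, 3062 and 3896 CPM in comparator cells. Library 2 had the highest value in both sets, and the log2 ratios were -2.80, -1.21, -2.43 and -2.05. Thinned to 2000 UMIs, 24.6, 62.2, 41.1 and 34.5% of members had an S100a6 UMI (28.1, 73.3, 50.9 and 47.3% unthinned), against 93.2, 96.2, 88.5 and 92.8% of comparator cells (98.1, 98.6, 97.9 and 96.8% unthinned). Macrophage-type cells hold the gene themselves, at 268, 403, 375 and 307 CPM and thinned shares of 21.7, 44.1, 40.9 and 35.3%, so they give no background level for it.

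S100a4, of the same protein family, was at 122, 150, 43.8 and 86.8 CPM in members and 642, 576, 471 and 484 CPM in comparator cells. Lgals1, which encodes galectin-1, a sugar-binding protein, was at 36.4, 112, 34.1 and 90.9 CPM against 238, 283, 229 and 325 CPM. Itgb1, the integrin beta 1 chain, was at 113, 81.5, 53.6 and 57.9 CPM against 283, 253, 182 and 203 CPM. In none of these genes did the sets overlap.

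S100a6 and Lgals1 were the only 2 of 12 B-1 genes outside the rule that reached the level limit, and both were called lower. Lgals1 reached that limit only through comparator cells, where it was the higher. This list too was chosen with earlier results of these data known, so its direction is no independent support for the label. The surface proteins that define B-1 cells were too sparse to compare. Cd5, the marker of B-1a cells, had 1, 0, 0 and 0 UMIs in members and 28, 7, 1 and 6 in comparator cells; counted as 3 UMIs, a 0 in members allows up to 12.9, 14.6 and 12.4 CPM in libraries 2, 3 and 4. Spn, which encodes CD43, had 0, 3, 4 and 2 UMIs in members. Itgam, the CD11b chain, had 26, 25, 12 and 5 UMIs in members, and macrophage-type cells held it at 983 to 1289 CPM.

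Zcwpw1, a reader of histone methylation known from meiosis, had the most negative ratio. It had 1, 2, 3 and 2 UMIs in members, or 3.31, 8.58, 14.6 and 8.27 CPM, and 543, 72.5, 212 and 437 CPM in comparator cells. With so few UMIs the ratios are wide: -6.77 (-12.66 to -4.88), -2.76 (-6.13 to -1.21), -3.64 (-6.15 to -2.28) and -5.40 (-8.77 to -3.86). Marker-negative cells stood between, at 144, 49.9, 47.9 and 213 CPM.

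Lifr, the receptor for leukaemia inhibitory factor, was at 79.5, 34.3, 14.6 and 4.13 CPM in members and 224, 165, 129 and 67.7 CPM in comparator cells. Both sets were highest in library 1 and lowest in library 4, and macrophage-type cells had 180, 46.6, 47.8 and 26.0 CPM. Sox5, a transcription factor gene, was at 29.8, 47.2, 14.6 and 8.27 CPM in members against 127, 126, 75.0 and 78.2 CPM. Prkar2b, a regulatory subunit of protein kinase A, was at 43.0, 17.2, 9.74 and 12.4 CPM against 166, 71.8, 104 and 89.6 CPM. The low values of these genes rest on 1 to 24 UMIs per library. The call of Sox5 was lost without library 1, without library 2, with means over cells, and in cells of 3000 to 8000 UMIs. That of Prkar2b was lost without library 1. Where a library was left out, these losses came from the level limit and not from the ratios.

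Ccnd2, the cyclin D2 gene that drives entry into the cell cycle, was at 72.8, 47.2, 48.7 and 116 CPM in members and 271, 137, 118 and 240 CPM in comparator cells. Diras2, a small GTPase gene, was at 53.0, 34.3, 34.1 and 16.5 CPM against 152, 99.9, 106 and 78.2 CPM. In cells of 3000 to 8000 UMIs neither kept its call. That of Ccnd2 was also lost with a prior of 2 and with at least 2 receptor UMIs, as was that of Lgals1 with the latter. The call of Diras2 was lost without library 1, through the level limit. Zeb2, a repressor high in age-associated B cells, was lower in all 4 libraries without reaching a call, at log2 ratios of -0.99, -1.01, -1.53 and -1.35; it was the only 1 of 7 genes on the age-associated and memory list that was tested. Genes of dividing cells were nearly absent in members: Mki67 had 0, 2, 0 and 0 UMIs and Top2a 2, 0, 0 and 0. Of 10 cell cycle genes, Hmgb2 alone was tested, with log2 ratios of 0.73, 0.06, 0.50 and 0.12.

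The B cell receptor machinery itself differed little. Of 22 genes on its list, 16 were tested, none was called, 1 was higher and 4 lower in all 4 libraries, and the median was -0.081 (-0.25 under TMM scaling, with all genes at -0.11). Among all genes tested, 23.9% were higher and 17% lower in all 4 libraries. Cd79b, the partner chain of Cd79a, was at 2185, 1922, 1923 and 2170 CPM in members and 2207, 2047, 2141 and 2074 CPM in comparator cells. Ms4a1, which encodes CD20, was at 1357, 1334, 993 and 1095 CPM against 1958, 1665, 1338 and 1544 CPM. Siglecg, an inhibitory lectin that restrains B-1 cells, had log2 ratios of -0.29, -0.49, -0.42 and -0.48. Btk, the kinase below the receptor, had ratios of 0.66, 0.58, 0.51 and 0.51.

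Among 24 B lineage transcription factors, 15 were tested and none was called. In all 4 libraries 8 were higher and 2 lower, beside 23.9 and 17% of all genes tested. The median was 0.25, beside 0.054 for all genes, and 0.079 beside -0.11 under TMM scaling. Ebf1, which specifies the B lineage, was at 1341, 1038, 1198 and 1038 CPM in members and 871, 723, 687 and 667 CPM in comparator cells. Irf8 came close to a call with log2 ratios of 1.42, 1.12, 0.92 and 0.95, as did Mef2c with 1.01, 0.66, 0.96 and 1.32. Pou2f2, which encodes OCT2, was lower in all 4 libraries, at -0.45, -0.40, -0.53 and -0.33.

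Survival, sensing and immediate early genes gave smaller contrasts. In the BAFF, CD40 and TNF family list, 3 of 10 genes were tested; Tnfrsf13c, the BAFF receptor, had log2 ratios of 0.35, 0.51, 0.78 and 0.14, and Tnfrsf13b, which encodes TACI, -0.33, -0.27, -0.26 and -0.04. In the toll-like and cytokine receptor list, 2 of 17 were tested, Ly86 and Unc93b1, and neither kept 1 sign. In the immediate early list, 6 of 15 were tested, Cd69 was called, and 4 were higher in all 4 libraries, beside 23.9% of all genes tested. The median was 0.42 (0.27 without library 1), beside 0.054 for all genes. Jund, an AP-1 subunit, was at 699, 910, 1003 and 893 CPM in members and 622, 624, 881 and 808 CPM in comparator cells. Of 14 interferon response genes, 2 were tested and none called; Ly6a was lower in all 4 libraries (-0.61, -0.59, -0.13 and -0.60), and Ifi27l2a was at 291, 485, 657 and 190 CPM in members.

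Marginal zone, germinal centre and plasma cell genes mostly lay under the level limit. Of 7 marginal zone genes only Notch2, the receptor on which those cells depend, was tested, with log2 ratios of 1.25, 0.85, 0.79 and 0.67. S1pr3, the sphingosine receptor typical of them, had 0 UMIs in every library; counted as 3 UMIs, a 0 allows up to 9.93, 12.9, 14.6 and 12.4 CPM. Dtx1 and Cd1d1, also on the marginal zone list, were seen at low level. Summed over libraries, Dtx1 was at 16.0 CPM in members with Fcer2a only, 48.5 with Cr2 only and 41.0 with both. Cd1d1 was at 12.0, 24.3 and 10.3 CPM in the same order, and these values rest on 2 to 14 UMIs each. No gene of the 7 on the germinal centre list or the 7 on the plasma cell list reached the level limit. Sdc1, the CD138 gene of plasma cells, had 0 UMIs in each library.

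Lipid and complement genes mostly lay under the level limit, and no library can be tied to a diet. Of 11 sterol and lipid handling genes, Abca1, a cholesterol exporter, was the only one tested, and it was at 175, 103, 107 and 78.5 CPM in members and 119, 69.6, 76.3 and 39.1 CPM in comparator cells. Of 4 complement regulators, Cd55 was tested; it protects cells from complement and was at 420, 249, 385 and 389 CPM in members against 176, 167, 177 and 222 CPM.

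Macrophage transcripts were present at low level in members, more so than in comparator cells. The summed level of 15 macrophage markers was 2314, 2145, 3199 and 3997 CPM in members, 1338, 1472, 1877 and 3200 CPM in comparator cells, and 50379, 64538, 76849 and 114113 CPM in macrophage-type cells. Of these, 7 were tested, none was called, and 5 were higher in members in all 4 libraries, beside 23.9% of all genes tested. Their median was 0.69, beside 0.054 for all genes. Lyz2 in members was 4.04, 2.95, 3.98 and 2.87% of its level in macrophage-type cells, and in comparator cells 2.10, 1.92, 2.27 and 2.17%. Fcgr1, a defining receptor gene of macrophages, had 0 UMIs in members of all libraries, as had Timd4 in libraries 1 to 3 and Mertk in libraries 2 to 4. Macrophage-type cells themselves held Fcgr1 at only 14.7, 39.2, 36.0 and 28.3 CPM. Counted as 3 UMIs, a 0 in members allows up to 9.93, 12.9, 14.6 and 12.4 CPM, so these zeros cannot show that macrophage RNA was absent. The part of macrophage RNA in the ratios of genes that macrophage-type cells also hold, such as Laptm5, Neurl3, Irf8 and the MHC class II genes, was not tested; for Vpreb3, Ccr7, Cd69 and Ighd, macrophage-type cells had at most 4.31 CPM.

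Markers of the other cell types were at or near 0 in members, and no gene on those 8 lists was tested. The T cell list had 2, 1, 3 and 5 UMIs, all but 1 of them of Lck, and Trac, Cd4 and Cd8a had none. The dendritic cell list had 5, 21, 0 and 0 UMIs, and the 21 of library 2 lay in 1 cell with 16 UMIs of Cd209a. The mast cell list had 13, 0, 2 and 0 UMIs, the mesothelial and stromal list 2, 2, 0 and 0, the NK cell list 0, 1, 0 and 0 and the neutrophil list 0, 0, 1 and 0. Eosinophil and erythroid markers had none.

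Members were not alike among themselves. Those with Fcer2a only numbered 34, 20, 33 and 33, those with Cr2 only 13, 19, 11 and 12, and those with both 10, 6, 13 and 10. Cells with Cr2 only were 42.2% of members in library 2 and between 19.3 and 22.8% in the others. They were also deeper, at medians of 5751, 4852, 3920 and 5049.5 UMIs, against 4070, 3558.5, 2850 and 3385 UMIs for Fcer2a only.

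Cells with Cr2 only differed from cells with Fcer2a only in the levels of several genes described above. Ccr7 was at 158, 57.8, 130 and 128 CPM in them and at 244, 115, 222 and 227 CPM in cells with Fcer2a only. Vpreb3 was at 92.0, 135, 259 and 96.2 CPM against 164, 265, 406 and 356 CPM. The levels of both genes were below those of cells with Fcer2a only in 4 of 4 libraries, but the counting intervals overlapped for Ccr7 in all 4 and for Vpreb3 in all but library 4. S100a6 was at 1091, 2543, 1339 and 978 CPM against 334, 1174, 358 and 931 CPM, higher in 4 of 4, with intervals apart in libraries 1 to 3. Ighd was lower in 3 of 4 libraries, with intervals apart in libraries 1 and 3, at 789, 645, 389 and 850 CPM against 1332, 805, 784 and 848 CPM. In cells with both receptors, S100a6 was at 0, 2314, 305 and 906 CPM and Ighd at 1534, 354, 862 and 632 CPM. Their Vpreb3 was at 283, 23.6, 89.7 and 253 CPM and their Ccr7 at 303, 118, 162 and 253 CPM. High S100a6 and low Ighd or Vpreb3 were thus not particular to cells with Cr2 only. The subsets with 1 receptor hold 11 to 34 cells per library and that with both 6 to 13, and this contrast was chosen after its values were seen.

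Differences between libraries within B-2-like cells were few. A gene stood apart where a library lay at least 4-fold above or below each of the others, among 1715 genes with at least 100 CPM in the highest library. Above the others were 3 genes (0.175%) in library 1, 0 in libraries 2 and 3, and 1 (0.0583%) in library 4; below were 2 (0.117%), 1 (0.0583%), 0 and 1 (0.0583%). Besides Xist, at 1328, 0, 4.87 and 0 CPM, library 1 was above in Retnla and Lars2. Retnla, a secreted protein gene of alternatively activated macrophages, was at 463, 30.0, 73.0 and 41.3 CPM in members, at 185, 21.1, 36.2 and 21.9 CPM in comparator cells and at 9959, 1048, 1060 and 818 CPM in macrophage-type cells. Lars2, a mitochondrial leucyl-tRNA synthetase gene, was at 1930, 408, 341 and 389 CPM in members, and all 57 members of library 1 had a UMI of it. Comparator and macrophage-type cells of library 1 were likewise highest in Lars2, at 1529 and 1147 CPM.

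Apoe spanned the libraries in members as it did in macrophages. The gene lacking in 3 of the 4 groups was at 3.31, 47.2, 73.0 and 1290 CPM in B-2-like cells of libraries 1 to 4, at 8.08, 53.9, 79.0 and 1178 CPM in comparator cells, and at 30.1, 867, 741 and 29955 CPM in macrophage-type cells. Library 1 was lowest and library 4 highest in all 3 sets, and in library 1 the members held 1 UMI. Counts at the 3' end may miss a deletion elsewhere in the gene, and no library has a known genotype, so the values bear on no label. Slpi, a protease inhibitor gene, followed macrophage-type cells too, at 13.2, 253, 623 and 405 CPM in members and 884, 7066, 12951 and 13830 CPM in macrophage-type cells. Pde3b, a phosphodiesterase gene, stood low in library 2, with 132, 8.58, 77.9 and 74.4 CPM in members, and Ptpn22, a phosphatase gene of antigen receptor signalling, in library 4, with 169, 154, 141 and 20.7 CPM. In comparator cells these genes did not stand apart by that limit: Pde3b was at 54.0, 39.7, 40.2 and 35.3 CPM and Ptpn22 at 325, 256, 262 and 152 CPM.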

How the data were processed

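The authors deposited a matrix of UMI counts, whole numbers for 31253 genes in 26811 barcodes. Per the file headers, Cell Ranger 5.0.1 wrote it. CASAVA 1.8, Seurat and the mm10 build appear in the submitters' processing notes. For counting settings, cell calling and removal of free RNA, nothing is stated in the sources used here. No doublet caller was run: the limits of 0 UMIs on Adgre1, Csf1r and Cd3 genes remove mixed barcodes only where these genes were caught. Depth per set is given with the shares. Members had 302988, 233830, 206061 and 242740 UMIs in libraries 1 to 4, so 1 UMI is about 3 to 5 CPM. Samples could not be joined to libraries, so no group was compared.

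UMIs were summed per set and library with Python 3.11.15, numpy 2.4.6, scipy 1.17.1 and pandas 2.3.3, scaled to totals, and tested by rule of size only; edgeR 4.0.16 in R 4.3.3 gave TMM factors for 1 alternative. The comparison was tested on simulated data. Macrophage-type cells had at least 1 UMI of Adgre1 and of Csf1r and none of Cd79a. Gene positions are from GENCODE M21 on GRCm38, counted from 1, in which 31107 gene identifiers were found. Named genes are up to 15 called genes in each direction (without Gm, Rik and immunoglobulin variable names), members of the 28 fixed lists above the level limit, the genes of the rule with Ighd, and up to 5 genes per library and direction that stood apart; low genes named beside them, and sex-linked genes, were chosen after their values were seen. Some listed genes are not reported here. The members and all lists were chosen with earlier results of these data known.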

Additional observations from a re-analysis of the deposited data

How the results depend on the processing

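Every called gene kept its direction under each of the 14 alternatives; 36 of their values no longer met the call, and the shares, counts and medians kept within their limits in 141 cases and moved in 52, given here. A limit of 2 UMIs on Fcer2a and Cr2 gave member shares of 6.56, 3.93, 9.06 and 9.84% of B cells in libraries 1 to 4, thinning 7.51, 6.79 and 13.8% in libraries 1, 2 and 4, and a second thinning, chosen after seeing the data, 6.72, 3.87, 13.4 and 14.6%. A mitochondrial limit of 5% gave 33.3, 13.6, 42.4 and 43.1%, from only 36, 66, 59 and 58 B cells. Called genes numbered 31 higher and 18 lower at a level limit of 50 CPM, and 5 and 5 at 200 CPM. They numbered 22 higher with 2 receptor UMIs and 16 lower under TMM scaling. Leaving out each library in turn gave 11 to 17 higher and 11 to 13 lower. The first 2 follow from more or fewer genes tested. With a library left out, a call could be lost only through the level limit, since the remaining ratios still met the size rule. New calls could also arise because fewer libraries had to meet the size rule. The cause of the other changes was not tested. In cells of 3000 to 8000 UMIs only (chosen after seeing the data), 8 were higher and 9 lower, with 8 and 7 shared; Cd69, Laptm5, P2ry10 and H2-Oa were lost among the higher and Ccnd2, Diras2 and Sox5 among the lower. Thinning lost Cd69, H2-Oa and P2ry10, and TMM scaling Cd69, H2-Oa and Neurl3.

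List medians moved as follows. The follicular list was 0.43 under TMM scaling, 0.43 at 50 CPM and 0.32 at 200 CPM. The B cell receptor list was -0.064 without Fcer2a or Cr2 in the comparator, -0.25 under TMM scaling, -0.057 with a prior of 2, -0.038 at 50 CPM, -0.11 at 200 CPM, -0.11 with per-cell means, -0.11 in the depth window and -0.13 to -0.046 when leaving out 1 library. The immunoglobulin list was -0.54 at 50 CPM, -0.36 with 2 receptor UMIs, -0.050 in the depth window and -0.59 to -0.055 when leaving out 1 library. Transcription factors were 0.079 under TMM scaling, 0.11 in the depth window and 0.24 to 0.42 when leaving out 1 library. The homing list was 0.61 thinned, -0.20 under TMM scaling and -0.24 (without library 1) to 0.25 when leaving out 1 library, and the macrophage list 0.21 at 200 CPM and 0.49 in the depth window. Genes standing apart in library 2 numbered 2 without immunoglobulin totals, with per-cell means, and without the deepest 10% of members; in library 3 they numbered 2, 1 and 1, where none did before.

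Members and comparator cells were paired by library, since each ratio was formed inside a library. No comparison of groups was possible because each group has 1 sample and no library is tied to one. With 45 to 57 members per library, genes near 100 CPM rest on about 20 to 30 UMIs, and lower genes could not be compared.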
